A study of Homo sapiens with 20 samples.

Results

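Histone genes of the replication-dependent clusters were followed in chromatin accessibility peak lists of 2 colon adenocarcinoma cell lines. The genes were chosen by symbol alone: every protein-coding gene of the RefSeq annotation of hg38 whose symbol is H1-, H2AC, H2BC, H3C or H4C and a number, which gave 73 of 20033 protein-coding genes. Of these, 55 lie in the large cluster on chromosome 6, 13 on chromosome 1, and 5 elsewhere. By product they are 10 linker histone H1 genes, 17 H2A, 18 H2B, 13 H3 and 15 H4 genes. The peak lists entered the choice of the data shown, since each gene is represented by the intervals that lie within 1 kb of either of its annotated ends, so its states and scores are given as a description with no test.

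Assay for transposase-accessible chromatin with sequencing (ATAC-seq) marks DNA that a transposase can reach. LOVO and RKO, both established lines, carried either a control hairpin (shControl) or one that targets METTL3 (shMETTL3), the enzyme that writes N6-methyladenosine on RNA, so all groups have a hairpin in common. Cells were left untreated or received olaparib, which blocks poly(ADP-ribose) polymerase, at a dose and for a time not stated in these labels. Of the 20 samples, each line has 4 of untreated shControl, where 2 are labelled batch 2, and 2 for each of the groups with shMETTL3, with olaparib, or with both. Each line has 5 lists: a scored list (intervals with a score) for untreated shControl and for both olaparib groups, and a merged list (intervals only) for untreated shControl and untreated shMETTL3. The lists are named for groups, but peak names in the scored lists all carry replicate 1, and whether these are peaks of 1 replicate or of a pool is not stated. Which list holds batch 2 is not stated either. No group has separate values for its replicates, so differences between lists could not be set against a spread between them. A hairpin acts on RNA, and METTL3 level is not visible in these lists, so the knockdown was not checked here.

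Replication-dependent histone genes are short, lack introns as a rule, and give transcripts that end in a stem-loop instead of a poly(A) tail. They are transcribed in S phase, when new chromatin needs histones, within nuclear bodies organised by NPAT at the clusters. H2A and H2B genes often stand head to head and share the DNA between their start sites, while H1 genes encode the linker histone that binds outside the nucleosome core. The symbol rule also takes in linker genes that are expressed outside S phase or in the germ line (such as H1-10, H1-6, H1-7 and H1-8), so the name of the set is not exact for each of them.

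The DNA just upstream of representative start sites is printed to set promoters that had intervals beside promoters that had none. Each line gives 200 bases before the start site from the RefSeq promoter table (GRCh38.p14), 5′ to 3′ on the gene's strand. Capitals mark exact matches on either strand, and none of the 4 motifs contains another. The TATA box was searched as TATAAA and the CCAAT box by the letters of its name. The octamer, which POU2F1 binds, was searched as ATTTGCAT. The H1 box of linker histone promoters was searched as AAACACA. H2AC25, H2BC11 and H4C8 had an interval over the start in the untreated shMETTL3 list of LOVO, H2BC4 in that of RKO, H2BC6 in LOVO lists only, and H4C14, H2BC1 and H1-6 in no list. H1-2 is shown for its H1 box: its interval in that LOVO list lay past the gene's far end, and its start had a narrow interval in other lists.
H2AC25 (chr1:228457874-228458073, minus strand): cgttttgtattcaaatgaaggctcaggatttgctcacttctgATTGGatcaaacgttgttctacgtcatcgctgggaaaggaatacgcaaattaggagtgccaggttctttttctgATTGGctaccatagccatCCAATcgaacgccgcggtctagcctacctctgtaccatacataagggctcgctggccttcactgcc
H2BC11 (chr6:27132796-27132995, minus strand): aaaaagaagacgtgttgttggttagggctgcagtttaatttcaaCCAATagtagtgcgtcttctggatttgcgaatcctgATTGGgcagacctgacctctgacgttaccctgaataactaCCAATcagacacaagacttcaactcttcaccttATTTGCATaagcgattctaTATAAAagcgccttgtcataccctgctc
H1-2 (chr6:26056471-26056670, minus strand): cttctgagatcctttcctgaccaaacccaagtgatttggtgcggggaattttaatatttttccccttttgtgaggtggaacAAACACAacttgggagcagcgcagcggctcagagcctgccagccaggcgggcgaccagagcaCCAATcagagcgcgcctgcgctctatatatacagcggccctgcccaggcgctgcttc
H4C8 (chr6:26285535-26285734, minus strand): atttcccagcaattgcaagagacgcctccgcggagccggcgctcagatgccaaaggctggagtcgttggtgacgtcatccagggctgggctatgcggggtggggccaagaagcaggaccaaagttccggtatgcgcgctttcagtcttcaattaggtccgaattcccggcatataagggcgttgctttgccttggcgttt
H2BC4 (chr6:26123927-26124126, minus strand): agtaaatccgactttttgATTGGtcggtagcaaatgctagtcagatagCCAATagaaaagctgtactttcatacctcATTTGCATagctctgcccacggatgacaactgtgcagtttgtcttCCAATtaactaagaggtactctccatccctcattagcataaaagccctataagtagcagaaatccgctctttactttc
H2BC6 (chr6:26183561-26183760, plus strand): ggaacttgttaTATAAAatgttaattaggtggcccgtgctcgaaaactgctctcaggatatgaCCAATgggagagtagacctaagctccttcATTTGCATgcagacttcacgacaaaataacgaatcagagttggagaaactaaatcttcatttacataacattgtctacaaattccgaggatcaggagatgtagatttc
H4C14 (chr1:149832457-149832656, plus strand): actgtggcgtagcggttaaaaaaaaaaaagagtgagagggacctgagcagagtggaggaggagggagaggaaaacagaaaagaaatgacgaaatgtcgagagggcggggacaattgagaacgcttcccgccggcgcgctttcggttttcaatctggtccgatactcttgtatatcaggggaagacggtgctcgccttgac
H2BC1 (chr6:25726577-25726776, plus strand): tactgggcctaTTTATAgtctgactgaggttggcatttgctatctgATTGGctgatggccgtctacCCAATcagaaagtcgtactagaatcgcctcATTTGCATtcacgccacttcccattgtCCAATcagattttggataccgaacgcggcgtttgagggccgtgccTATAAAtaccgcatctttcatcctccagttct
H1-6 (chr6:26108136-26108335, minus strand): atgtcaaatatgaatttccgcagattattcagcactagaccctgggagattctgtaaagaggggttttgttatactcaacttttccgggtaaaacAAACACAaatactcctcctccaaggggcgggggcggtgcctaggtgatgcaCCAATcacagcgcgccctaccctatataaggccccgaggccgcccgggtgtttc

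The H2BC11 stretch holds the 3 elements that most H2B promoters have: CCAAT on either strand, an octamer that begins 47 bases before the start, and a TATA box that begins 28 bases before it. H2BC1, a testis H2B gene without an interval in any list, carries the same elements, with its octamer at 104 and a TATA box at 32 bases before the start. The H1 box of H1-2 begins 119 bases before its start and is followed by CCAAT at 57 bases, and H1-6, with no interval in any list, has these elements at 105 and 54 bases. Neither H4C8 nor H4C14 held any of the 4 motifs in the bases shown. The presence of these letters is a description of the window and not evidence of a bound site.

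Over the whole promoter windows, which run from 250 bases before to 50 after the start, 67 of the 73 genes had an entry, and H4C1, H4C3, H2AC12, H3C11 and H3C12 were among those without one. CCAAT was present in 56 of the 67 (83.6%) against 34.6% of all 35116 promoters in the table. TATAAA was present in 43 (64.2%) against 11.5%, the octamer in 26 (38.8%) against 1.77%, and the H1 box in 10 (14.9%) against 5.64%. The octamer was found in 14 of 18 H2B and 11 of 16 H2A promoters, in 1 of 11 H3 promoters (H3C4, whose window is also that of H2AC7), and in 0 of 9 H1 and 0 of 13 H4 promoters. Windows of head-to-head H2A and H2B genes overlap and both strands were searched, so the same match can count for both genes. The motif shares of histone genes are thus not shares of independent promoters. The H1 box was in 7 of 9 H1 promoters. H4 promoters held few CCAAT matches (3 of 13) and more CG dinucleotides, with a median of 16 per window against 8 in H3 promoters, 11 over all the histone genes and 14 over the whole table. Among the genes open in no list, 3 of 12 promoters held an octamer (H2AC1, H2BC1 and H2BC3). The rest were H2AC18 and genes of the H1, H3 and H4 classes, where the octamer was rare or absent. Among the 34 with an entry that were open in at least 8 lists, 15 held one. These groups differ in histone class, so the counts do not compare like promoters. TATAAA was in 66.7% and 64.7% of them respectively, CCAAT in 83.3% and 85.3%, and the H1 box in 33.3% and 11.8%.

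A gene is called open in a list when at least 1 interval lies within 1 kb of either gene end. The merged untreated shControl list of LOVO held 41 open histone genes (56.2%, against 51.5% of all genes), and its scored counterpart 57 (78.1%, against 55.8%). With shMETTL3 and no drug LOVO had 13 (17.8%, against 35.8%), with olaparib in shControl 49 (67.1%, against 53.2%), and with both 58 (79.5%, against 58.4%). RKO had 51 in the merged untreated shControl list (69.9%, against 54.9%), 45 in the scored one (61.6%, against 47.6%) and 16 with shMETTL3 (21.9%, against 25.3%). With olaparib, RKO had 47 in shControl (64.4%, against 52.3%) and 48 in shMETTL3 (65.8%, against 55.4%). The untreated shMETTL3 lists thus held the fewest open histone genes in each line as deposited, and they were the only lists where the share of histone genes was below that of all genes. The order of the scored lists changed in both lines when they were cut to equal length. They were reduced to the 21210 highest-scoring intervals, as many as the shortest scored list holds. LOVO then had 19 open histone genes in shControl, 24 in shControl with olaparib, and 12 with the drug and shMETTL3 together. That 12 is below the 13 of untreated shMETTL3, whose list has no scores to reduce it by. RKO reduced in this way had 45 in shControl, whose list is the shortest, 33 in shControl with olaparib and 18 in shMETTL3 with olaparib. Most histone intervals score below their list's median, so longer lists lose more of them by construction. The order after the cut thus gives no direction. A narrower rule used only the promoter window, from 250 bases before to 50 after the start, for the 67 genes with a listed start. Untreated shMETTL3 of RKO then had 6. This rule drops the far gene end and also narrows the 1 kb window, and the parts of these changes were not told apart. The other RKO lists had 33 to 41 by that rule.

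Short genes are another reference, nearer in length to these genes, whose median length is 496 bp and of which 63 are no longer than 2000 bp. A short gene offers less sequence near its ends. The match is by length only, and the reference includes the 63 histone genes themselves. Of the 1257 protein-coding genes up to 2000 bp, 22.6% were open in the scored shControl list of LOVO and 19% in that of RKO. With shMETTL3 the shares of short genes were 10.6% in LOVO and 8.51% in RKO. The share of open histone genes was above that of short genes in all 10 lists.

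**Figure D1:**
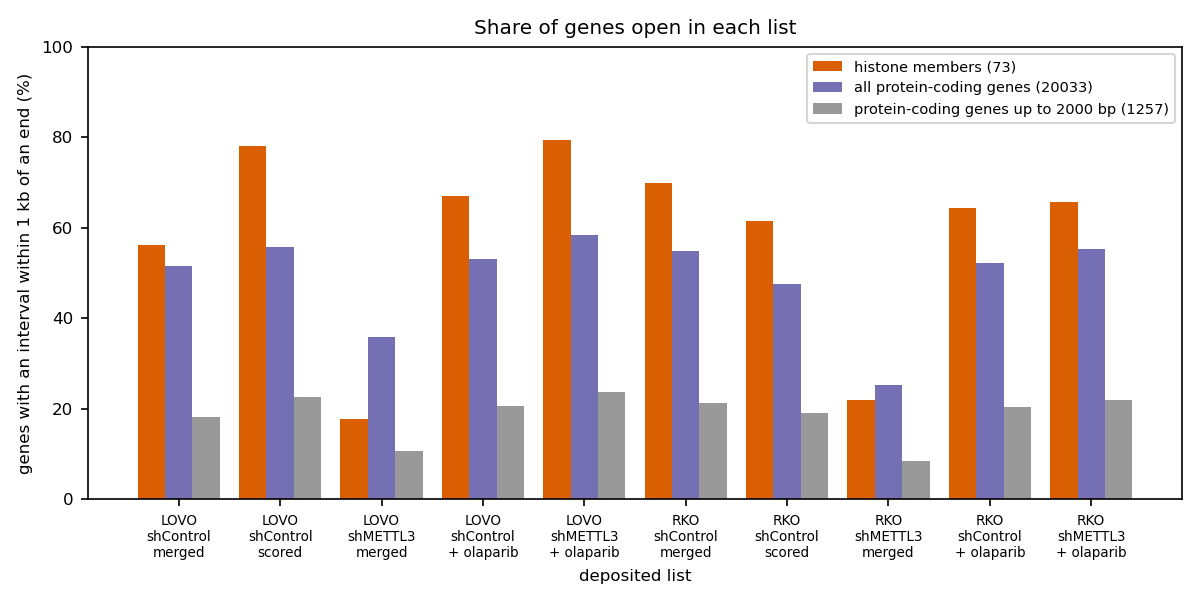
Share of open genes (y axis, percent) in each of the 10 lists (x axis) for the 73 histone genes, all 20033 protein-coding genes and the 1257 genes up to 2000 bp. Histone genes stand at 56.2% to 79.5% in the 8 lists other than untreated shMETTL3 and at 17.8% (LOVO) and 21.9% (RKO) in that list.

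Neighbouring histone genes share intervals and are not independent. The 73 genes form 43 loci when genes whose 1 kb surroundings overlap are joined, and 52 genes share a locus with another. Open loci numbered 26, 33, 8, 30 and 35 in the LOVO lists (merged shControl, scored shControl, shMETTL3, shControl with olaparib, shMETTL3 with olaparib) and 30, 27, 8, 28 and 29 in the RKO lists in the same order. The 13 genes open in LOVO with shMETTL3 rest on 8 intervals, and so do the 16 genes open in RKO with shMETTL3. One interval served at most 3 histone genes.

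Linker histone genes are described first. Covered bases are those that intervals cover within 1 kb of a gene's ends, given for the 5 lists of a line in the order above. H1-2, an S phase linker gene, had 935, 815, 476, 783 and 873 covered bases in the LOVO lists and 1225, 955, 0, 1003 and 984 in the RKO lists. It was the 1 S phase linker gene that kept an interval with shMETTL3 in LOVO, and it had none in that list of RKO. In scored LOVO shControl its wide interval lay just past the gene's end, with a centre 1095 bp downstream of the start. A narrow interval of 176 bp covered the start itself in that list at a score of 3.52, the lowest of any histone gene there.

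The other linker genes split between lines and lists. H1-4 had 0, 868, 0, 946 and 1063 covered bases in LOVO and 972, 1003, 176, 1020 and 1142 in RKO, so it kept a narrow interval with shMETTL3 in RKO only. H1-10 was listed with 0, 0, 0, 186 and 325 bases in LOVO and with 396, 215, 0, 732 and 208 in RKO. H1-7 had an interval only in LOVO shMETTL3 with olaparib, at a score of 3.30, while H1-1, H1-6 and H1-8 had none in any list. Of 10 linker genes, between 2 and 7 were open per list in LOVO and between 2 and 5 in RKO.

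H2A and H2B genes of the set include 11 head-to-head pairs, counted where both genes have a listed start, with 193 to 247 bp (median 235) between their start sites. H2AC12 has no listed start, so it and its neighbour H2BC12, which share intervals, were not counted as a pair. An interval covered part of that DNA in 7, 10, 4, 9 and 10 pairs in the LOVO lists and in 10, 8, 2, 9 and 9 pairs in the RKO lists. H2AC1 and H2BC1, a testis pair that stands apart from the main cluster, had none in any list. The pair of H2AC14 and H2BC14 had an interval between its starts in 4 lists, and the other 9 pairs in 7 to 9 lists. The lowest count of pairs in each line was in untreated shMETTL3.

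H2AC25 and H2BC26, a pair on the long arm of chromosome 1 at chr1:228457364-228458558, were the only core histone genes open in the untreated shMETTL3 list of both lines. H2AC25 had 1384, 311, 986, 778 and 802 covered bases in LOVO and 1168, 0, 213, 638 and 667 in RKO. The pair's interval with shMETTL3 covered a start in LOVO (chr1:228457270-228458255), whereas in RKO it was 213 bp wide and covered no start. Its scores were 8.99, 8.15 and 14.4 in the 3 scored LOVO lists and 5.29 and 5.73 in the RKO lists with olaparib, and the scored shControl list of RKO had no interval there.

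H2BC11, whose promoter is printed above, had 1178, 851, 514, 894 and 777 covered bases in LOVO and 1092, 750, 0, 694 and 502 in RKO. Its interval spans the DNA shared with H2AC11. With scores of 10.02, 11.97 and 10.98 in LOVO and 8.77, 7.73 and 11.1 in RKO, this pair had some of the higher-scored intervals of the set. H2BC4, paired with H2AC6, had 1478, 816, 0, 906 and 754 covered bases in LOVO and 1518, 844, 257, 888 and 841 in RKO, the opposite pattern with shMETTL3.

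The highest score of the histone genes in 3 scored lists belonged to H2BC5, at 14.8 in LOVO shMETTL3 with olaparib, 12.23 in RKO shControl with olaparib and 13.02 in RKO shMETTL3 with olaparib. H2BC5 is annotated over 13229 bp, much longer than a coding unit of a histone, and those intervals lay at its far end, for example at chr6:26171828-26172141 with a centre 13862.5 bp from the start. A separate interval covered its start, which lies beside H1-4, with scores between 6.24 and 8.40 in the 6 scored lists. The high score of H2BC5 is thus a value of the annotated gene end and not of its promoter.

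Among H3 genes, none of 13 was open in LOVO with shMETTL3, against 6 and 11 in the merged and scored shControl lists. H3C2 had 649, 261, 0, 256 and 274 covered bases in LOVO and 782, 283, 0, 521 and 288 in RKO. H3C1 had 1651, 936, 0, 640 and 975 in LOVO and 1592, 754, 156, 928 and 507 in RKO, where the remaining interval with shMETTL3 was 156 bp wide and covered no start. In RKO 7 H3 genes were open in every list other than shMETTL3, which had 2. The median of the highest score per H3 gene lay between 5.50 and 6.41 over the 6 scored lists.

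H4 genes were also mostly without intervals in untreated shMETTL3, with 1 of 15 open in LOVO and 2 in RKO, against 9 to 12 in the other LOVO lists and 10 or 11 in the other RKO lists. H4C8 was the H4 gene with an interval in that list of LOVO, with 993, 461, 438, 627 and 694 covered bases there and 825, 458, 0, 616 and 436 in RKO. H4C3 had 1693, 681, 0, 790 and 562 in LOVO and 707, 518, 0, 537 and 641 in RKO. H4C16, the isolated H4 gene on chromosome 12, had 0, 786, 0, 654 and 957 in LOVO and 1313, 794, 165, 1513 and 1167 in RKO. Within each of the 6 scored lists, the median of the highest score of H4 genes was above that of H3 genes, at 7.43 against 6.41 in LOVO shControl and 7.95 against 5.50 in RKO shControl.

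Across the set, 21 genes were open in at least 9 lists, 17 in 8 lists, and 31 in every list other than untreated shMETTL3. The 12 genes open in none were H1-1, H1-6, H1-8, H2AC1, H2BC1, H2BC3, H2AC18, H3C14, H3C15, H4C6, H4C7 and H4C14. Some of these have copies. The promoter windows of H4C14 and H4C15, of H3C14 and H3C15, and of H2AC18 and H2AC19 on chromosome 1 were identical (300 of 300, 296 of 296 and 299 of 299 bases, allowing a shift of up to 20 bases). No list held an interval over the start of any of these 6 genes. H4C15 was open in 4 lists only by intervals near its far end, and the strongest of these with olaparib were centred 16799.5 to 16811 bp from the listed start. H2AC19 was open in RKO merged shControl alone, by an interval upstream of its start (chr1:149850058-149850261). Reads from identical sequence cannot be placed uniquely, and no source used here says how they were treated. H4C11 and H4C12 on chromosome 6 are also nearly identical over the window (295 of 300 bases, 98.3%). Both had intervals in several lists, but none of these covered a start. H4C11 had 765, 522, 0, 0 and 248 covered bases in LOVO and 734, 393, 0, 353 and 705 in RKO. H4C12 had 588, 468, 0, 469 and 246 in LOVO and 842, 553, 0, 588 and 478 in RKO. H3C4 and H2AC7 share 1 start site in the table and so 1 promoter window.

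**Figure D2:**
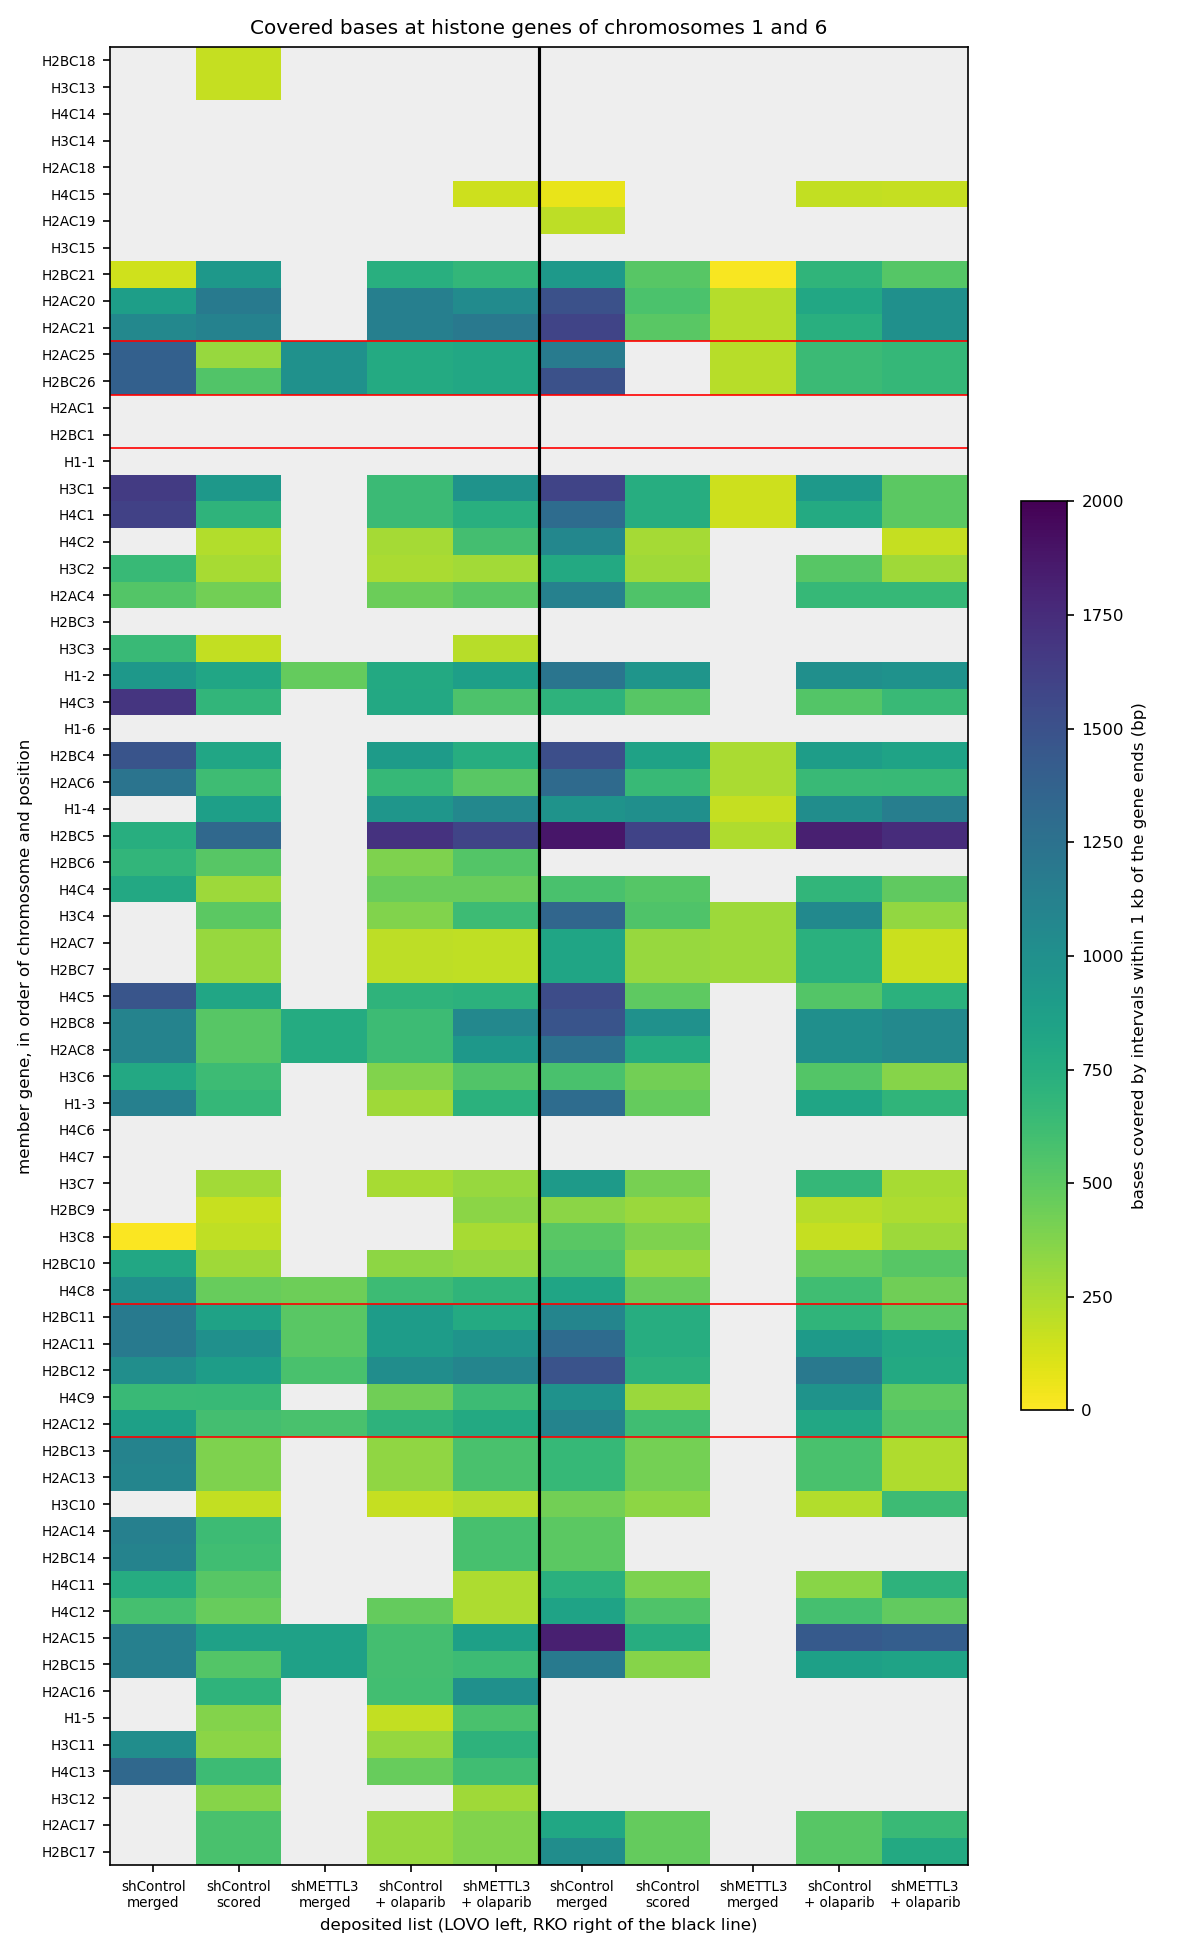
Bases covered by intervals within 1 kb of the gene ends (colour, bp) for the histone genes on chromosomes 1 and 6 (rows, in genome order) in the 10 lists (columns), with grey where no interval lies and red lines between blocks. The untreated shMETTL3 column is filled for 10 chromosome 6 and 2 chromosome 1 genes in LOVO and for 9 and 5 in RKO, and genes open in no list are grey throughout.

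Counts were also taken by cluster. On chromosome 6, 35, 48, 10, 41 and 48 of 55 genes were open in the LOVO lists and 41, 39, 9, 38 and 39 in the RKO lists. On chromosome 1, 5, 7, 2, 5 and 6 of 13 were open in LOVO and 7, 3, 5, 6 and 6 in RKO. Blocks were formed from neighbours less than 200 kb apart. The block of 5 genes from H2BC11 to H2AC12 (chr6:27132316-27147562) had all 5 open in every list other than untreated shMETTL3, which had 4 in LOVO and 0 in RKO. The block of 32 genes from H1-1 to H4C8 (chr6:26017032-26285534) had 20, 27, 4, 24 and 27 open in LOVO and 25, 25, 9, 24 and 25 in RKO. With shMETTL3, 9 of the 16 open genes of RKO thus lay in this block, and the 21 genes of the other two large chromosome 6 blocks had none.

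The last block of chromosome 6, 16 genes from H2BC13 to H2BC17 (chr6:27807479-27893891), had different counts in the lines: 10, 16, 2, 12 and 16 genes were open in LOVO and 11, 9, 0, 9 and 9 in RKO. Within it, the 27510 bp at chr6:27864317-27891826 with H2AC16, H1-5, H3C11, H4C13 and H3C12 held 2, 6, 0, 4 and 6 intervals in LOVO and none in any RKO list. The RKO lists other than shMETTL3 had no interval over 53.7 to 54.4 kb around these genes, and with shMETTL3 the empty stretch was 214 kb in RKO and 241 kb in LOVO. H3C11 had 1018, 344, 0, 314 and 706 covered bases in LOVO, H4C13 had 1325, 627, 0, 466 and 614, and both had 0 in all RKO lists. Copy number of this stretch was not measured here.

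H2BC6, in the first large block, had the same pattern as H3C11 and H4C13: 687, 522, 0, 385 and 533 covered bases in LOVO and 0 in all 5 RKO lists. These 3 genes were open in every LOVO list other than untreated shMETTL3 and in no RKO list. Altogether 10 genes were open in some LOVO list and no RKO list (13.7%, against 6.69% of all genes). In an RKO list and no LOVO list there was 1, H2AC19 (1.37%, against 3.96%). No gene was open in the 4 other RKO lists and in none of LOVO.

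**Figure D3:**
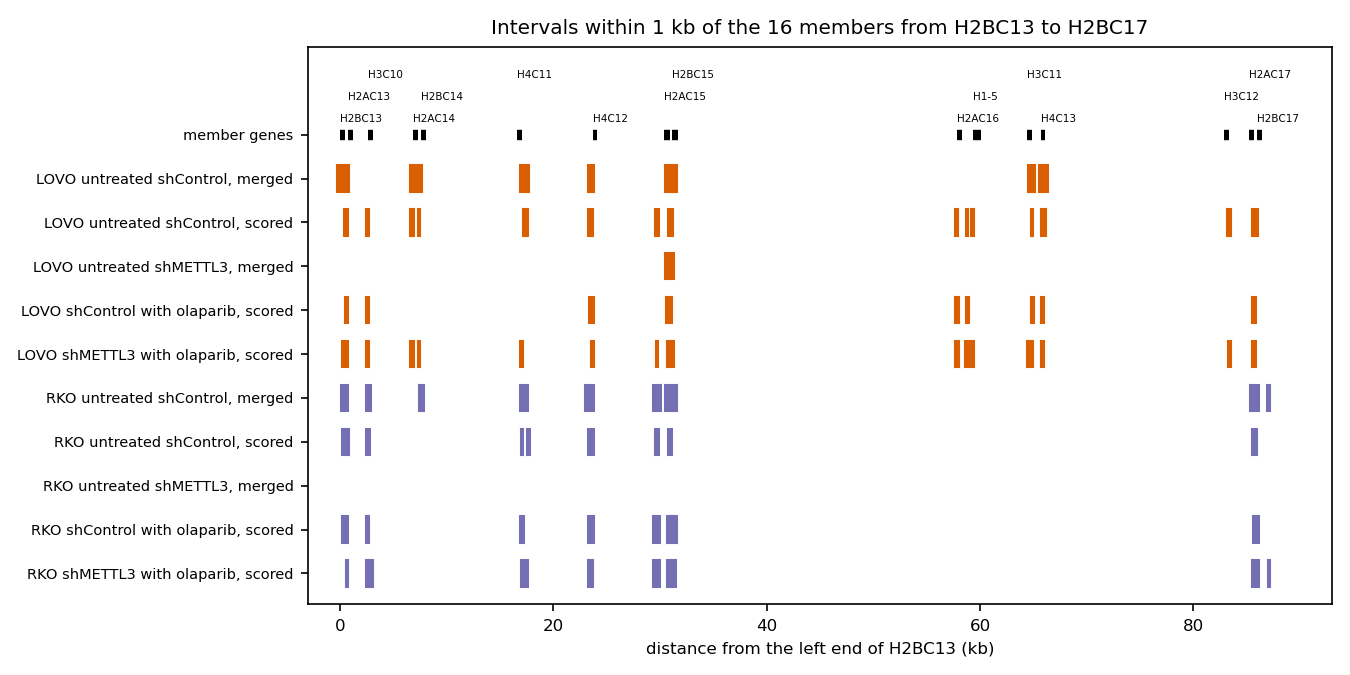
Intervals within 1 kb of the 16 genes of the last chromosome 6 block (x axis, distance from the left end of H2BC13 in kb) in the 10 lists (rows), LOVO in orange and RKO in purple, with the genes as black bars on top. At H2AC16, H1-5, H3C11, H4C13 and H3C12 only LOVO rows hold intervals, and the RKO untreated shMETTL3 row is empty.

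Knockdown of METTL3 without drug was compared with the control hairpin in the merged lists. A gene is called lost when it was open in the reference list and not in the other, and gained in the opposite case. In LOVO 28 of 41 open histone genes were lost (68.3%), against 31.2% of all open genes, and 0 of 32 were gained (0.813% of all genes not open). In RKO 35 of 51 were lost (68.6%), against 54.1% of all open genes, and 0 of 22 were gained (0.321% of all genes not open). Among genes up to 2000 bp, which include the short histone genes, the lost shares were 42.4% in LOVO and 61.2% in RKO. With the scored shControl list as reference, which also changes the kind of list, LOVO lost 44 of 57 (77.2%, against 36.2% of all open genes). RKO lost 31 of 45 in this way (68.9%, against 48.8%) and gained 2. By locus, 18 of 26 were lost in LOVO and 22 of 30 in RKO. The share lost was above both backgrounds in each line, by more in LOVO than in RKO.

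The untreated shMETTL3 lists are themselves shorter, with 16417 intervals in LOVO against 33474 in merged shControl, and 6916 in RKO against 27978. These list sizes move with the count of lost genes, and their part in it was not tested. The intervals were also narrower at histone genes, with a median width of 545 bp in LOVO (841 bp in merged shControl) and 230.5 bp in RKO (707 bp). Over the whole lists the medians were 480 and 571 bp in LOVO and 253 and 429 bp in RKO.

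Both lines lost 16 histone genes, which is 57.1% of those lost in LOVO and 45.7% of those lost in RKO: H1-3, H2AC4, H2AC13, H2AC14, H2BC10, H2BC13, H2BC14, H3C2, H3C6, H3C8, H4C3, H4C4, H4C5, H4C9, H4C11 and H4C12. Of the 37 genes open in both references, 16 were lost in both lines (43.2%, against 20.7% of all genes open in both references). In LOVO only, 8 were lost (21.6%, against 7.35%), in RKO only 10 (27%, against 28.4%), and 3 in neither. The 3, which include H2AC25 and H2BC26, are 23.1% of the genes kept in LOVO and 18.8% of those kept in RKO. In LOVO all 6 open H3 genes and 8 of 9 open H4 genes were lost, with 6 of 11 H2A, 7 of 12 H2B and 1 of 3 H1 genes. In RKO the losses were 5 of 7 H3, 9 of 11 H4, 9 of 14 H2A, 9 of 14 H2B and 3 of 5 H1 genes.

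The kept genes differed between the lines. LOVO kept H1-2, H2BC8, H2AC8, H4C8, H2BC11, H2AC11, H2BC12, H2AC12, H2AC15 and H2BC15 beside the 3 shared genes, and 5 of its 8 intervals lay at H2A and H2B neighbours. RKO kept H2BC21, H2AC20, H2AC21, H3C1, H4C1, H2BC4, H2AC6, H1-4, H2BC5, H3C4, H2AC7, H2BC7 and H4C16 beside the 3. In LOVO 6 of 7 kept intervals with a listed start nearby covered it, and in RKO 3 of 7 did. RKO intervals left with shMETTL3 were 156 to 291 bp wide, and 1 of them made H2BC21 open at 979 bp from its end, just inside the threshold.

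Genes kept in LOVO had a median of 1106 covered bases (722 to 1384) in merged shControl, against 947.5 (11 to 1693) for those lost. In the scored shControl list the order was the other way, with 541 against 622. The highest scores of the kept genes in the scored list had a median of 10.02 (6.60 to 14.9), against 7.55 (4.82 to 11.8). In RKO the kept genes had a median of 1310 covered bases (687 to 1880), against 825 (66 to 1821), and 555.5 against 429 in the scored list, but lower scores, with a median of 5.91 (4.33 to 10.2, 14 genes with a score) against 6.98 (3.75 to 9.55, 31 genes). Covered bases of the kept genes had a median of 576 (430 to 986) in LOVO and 221 (22 to 291) in RKO with shMETTL3. The ranges of kept and lost genes overlap in both lines and on both measures.

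**Figure D4:**
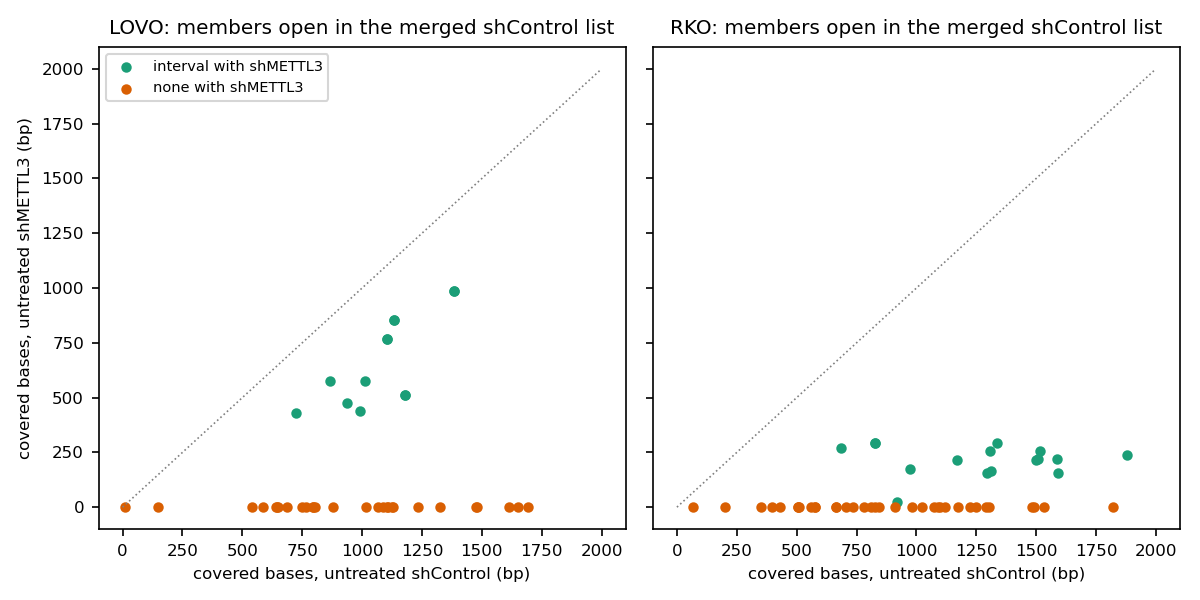
Covered bases within 1 kb of the gene ends in merged untreated shControl (x axis, bp) against untreated shMETTL3 (y axis, bp), 1 point per histone gene open in the shControl list, LOVO left and RKO right, with a dotted line of equal values. Points on the floor are the lost genes (28 in LOVO, 35 in RKO), and the kept genes stand at 430 to 986 bp in LOVO and at 22 to 291 bp in RKO.

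Olaparib against no drug in shControl was compared in the scored lists. In LOVO 9 of 57 open histone genes were lost (15.8%, against 7.47% of all open genes and 12.3% of short ones) and 1 of 16 was gained (6.25%, against 3.49%). The lost genes were H2BC18, H3C13, H3C3, H2BC9, H3C8, H2AC14, H2BC14, H4C11 and H3C12, and the gained gene was H1-10. In RKO 1 of 45 was lost (2.22%, against 2.36%), namely H4C2, and 3 of 28 were gained (10.7%, against 11.1%), namely H4C15, H2AC25 and H2BC26. By locus, LOVO lost 4 of 33 and gained 1 of 10, and RKO lost 1 of 27 and gained 2 of 16. No histone gene changed state in both lines, and the RKO shares were near those of all genes.

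The direction depends on the lists compared. The scored lists of LOVO hold 41431 intervals without and 32192 with olaparib, and those of RKO 21210 and 25855. The longer list was reduced to its highest-scoring intervals, as many as the shorter holds. LOVO then lost 5 histone genes and gained 12, while RKO lost 13 and gained 1. Most histone intervals score below their list's median, so this cut favours fewer open genes in the longer list. With the merged shControl list as reference LOVO lost 5 and gained 13, and RKO lost 4 and gained 0. The net loss in LOVO and net gain in RKO thus turned under each of these alternatives, and the second changes the kind of list as well as its length. Both signs stayed with scores of 5 or more, which gave 9 lost and 2 gained in LOVO and 1 lost and 11 gained in RKO. They also stayed with windows of 500 and 2000 bp and with an overlap of at least 100 bp.

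The genes that left the LOVO list with olaparib differed in how much they had before. H3C8, an H3 gene, had 194 covered bases at a score of 5.51 in untreated shControl, and H3C12 had 363 at 4.94. H2AC14 had 627 bases. Its interval with the score of 7.67 lay at the gene's far end, and the one over its start, towards H2BC14, scored 5.92. Some of these states lie close to the threshold: in the olaparib list an interval came within 1340 bp of H3C8 and within 1423 bp of H2BC9, and 1101 bp of H2BC18. In merged shControl of LOVO, H3C8 was open by an interval 990 bp away, and H2BC3 stayed outside at 1415 bp.

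Between the hairpins under olaparib, again in scored lists, LOVO lost 0 of 49 histone genes (1.5% of all open genes) and gained 9 of 24 with shMETTL3 (37.5%, against 12.9%). RKO lost 0 of 47 (1.79% of all open genes) and gained 1 of 26 (3.85%, against 8.38%). By locus, LOVO gained 5 of 13 and RKO 1 of 15, and neither lost any. This comparison uses the same shControl with olaparib list as the one before, so the 2 are not independent. Side by side, H3C8 had 194, 0 and 260 covered bases in LOVO shControl, shControl with olaparib and shMETTL3 with olaparib, H2AC14 had 627, 0 and 579, H4C11 had 522, 0 and 248, and H3C3 had 180, 0 and 218. Each of these genes was without an interval in the middle list alone. In RKO the 1 gained gene was H4C2, with 271, 0 and 179. H4C15 and H1-7 were gained in LOVO with 0 covered bases in both scored shControl lists. With lists of equal number the direction turned, with 26 histone genes lost and 1 gained in LOVO and 18 lost and 0 gained in RKO. Only the longer list, that of shMETTL3, is cut by score there, and most histone intervals score below their list's median. Fewer open genes in it are thus favoured by construction, so the turn gives no direction.

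Olaparib against no drug in shMETTL3 sets a scored list against a merged one. In LOVO 45 of 60 histone genes not open before were gained (75%, against 35.4%) and 0 of 13 were lost (0.279% of all open genes). In RKO 32 of 57 were gained (56.1%, against 40.4%) and 0 of 16 were lost (0.394% of all open genes). Both lines gained 22 of them. Kind of list and drug cannot be told apart in this comparison.

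Untreated shControl has both kinds of list, which shows how far the state of histone genes moves between lists of the same group. Which samples or batch each list holds is not stated, so kind of list and samples cannot be told apart here. In LOVO the scored list had 16 of 32 further histone genes open (50%, against 12.2% of all genes not open in the merged list) and lacked 0 of 41 (3.09%). In RKO it had 0 of 22 further genes (1.5%) and lacked 6 of 51 (11.8%, against 14.4%): H4C15, H2AC19, H2AC25, H2BC26, H2AC14 and H2BC14. Any histone gene count that sets a scored list against a merged one can carry a difference of this size.

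Scores at histone genes were low within their lists. The median score of the intervals at histone genes was 6.64, 6.38 and 6.33 in the scored LOVO lists (shControl, shControl with olaparib, shMETTL3 with olaparib) and 6.05, 6.24 and 6.39 in the RKO lists, against list medians of 8.91, 8.52, 9.16, 7.39, 7.88 and 8.28. The median percentile within the list was 25.4, 24.3 and 22.98 in LOVO and 29.4, 28.7 and 28.8 in RKO. Intervals at the ends of other genes had median percentiles of 58.3, 58.2 and 58.6 in LOVO and 47.1, 46.8 and 48.5 in RKO. Of 60, 45 and 66 histone intervals in LOVO, 11, 7 and 13 scored above the list median, and of 46, 48 and 49 in RKO, 14, 12 and 11 did. No histone interval was in the top 10% of its list, the highest percentile being 88.0.

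Width did not follow the same order. Intervals at histone genes had median widths of 320.5, 385 and 314 bp in the scored LOVO lists and 346.5, 499.5 and 419 bp in the RKO lists, against list medians of 288, 332 and 270 bp and 297, 330 and 276 bp. Those at other gene ends had medians of 414, 454 and 426 bp and 392, 480 and 416 bp. Histone intervals were therefore wider than the list as a whole in all 6 scored lists while scoring below it. No source used here says what the score measures, and scores of different lists are not on a known common scale.

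**Figure D5:**
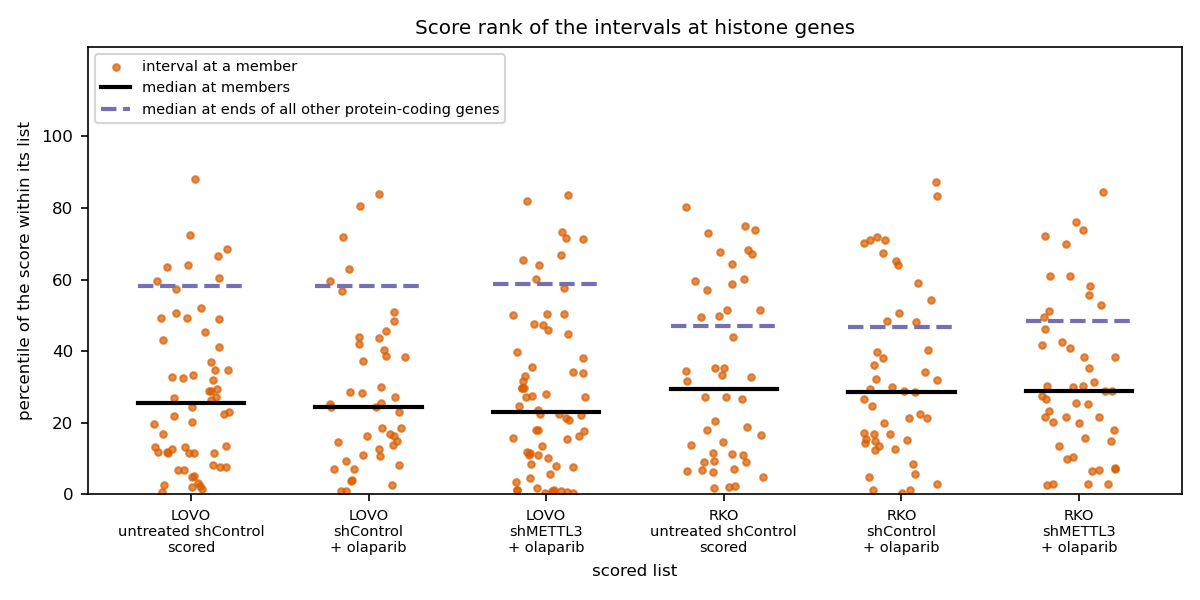
Percentile of the score within its list (y axis, 0 lowest to 100 highest) for each interval at a histone gene (points) in the 6 scored lists (x axis), with the median as a black bar and the median at other gene ends as a dashed bar. The black bars lie between 22.98 and 29.4 and below the dashed bars in all 6 lists, and the highest point lies at 88.0 in LOVO shControl.

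The choice of intervals within 1 kb of short genes keeps them close to a start, so their position is given as a description. Of those at genes with a listed start, 33 of 56 covered a start in scored LOVO shControl (58.9%) and 23 of 44 in scored RKO shControl (52.3%). The median centre was 57.75 bp downstream of the start in LOVO and 119.25 bp in RKO, with upper quartiles of 795.75 and 734.875 bp. In the merged lists, whose intervals are wider, 21 of 28 (75%) covered a start in LOVO and 30 of 47 (63.8%) in RKO.

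Genes that supply or regulate histones outside the clusters give a background for these results. All 17 listed genes of histone transcription and 3′ end processing were open in every LOVO list other than untreated shMETTL3, where 13 were, and 11 to 17 were open in the RKO lists. With shMETTL3, LOVO lost 4 of 17 and RKO 6 of 17, and both lost CPSF2, a subunit of the cleavage complex, and POU2F1, the octamer-binding factor. Of 14 histone chaperone genes LOVO lost 2 and RKO 7, with CHAF1B (a subunit of the replication-coupled chaperone CAF-1) and ATRX lost in both. Of the replication-independent variant genes LOVO lost 3 of 7 and RKO 5 of 8, and MACROH2A1, H3-3A and H3-3B were lost in both. These list counts stand beside 31.2% of all open genes lost in LOVO and 54.1% in RKO. H3-3B, CPSF2, CHAF1B and ATRX were already without an interval in the scored untreated shControl list of RKO, so their loss there holds against the merged list only.

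Markers of the labelled cell type were checked in the same way. Of EPCAM, KRT8, KRT18, CDX2 and VIL1, 4 or 5 were open in every LOVO list other than untreated shMETTL3 (3 there). In RKO VIL1 was open in no list, the other 4 were open in 4 lists, and KRT8 alone with shMETTL3. Of the leukocyte genes PTPRC was open in no list, and CD3E in 2 LOVO lists. Depth in reads is not known for any sample, and the lists held 6916 to 51462 intervals.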

How the data were processed

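ATAC-seq was done on 20 samples of 2 lines, and the deposited files are 10 peak lists named for groups, on hg38. The submitters' processing notes name MACS2 2.2.7.1, DiffBind 3.0.15, Bowtie2 2.4.2 and Trim Galore 0.6.6, with no roles. No source used here says how replicates were combined. The authors deposited 6 lists with a score per interval, whose peak names all carry replicate 1, and 4 merged lists with positions only. The score is the authors' value, its kind is not stated, and its ranks were taken within a list.

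Genes were taken from the RefSeq table of GRCh38.p14 (protein-coding, 20033 on the chromosomes used). An interval counted when at least 1 base lay within 1000 bp of a gene end. Genes were open, lost or gained by these counts, and no test was run, since no list gives replicates apart. Python 3.11.15 and pandas 2.3.3 were used, and the overlap code was tested on simulated intervals. Members and lists were chosen with earlier results of these data known. Genes were named when open in all or no lists, highest in score, lost in both lines, different between the lines, at the threshold or sharing a promoter, and the other named genes were chosen after their values were seen. Alternatives were the window, the overlap, the promoter window at gene starts only, a score minimum of 5, equal list lengths and the other shControl list. All value columns were assigned to a group. The values of 1 gene are not reported here.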

Additional observations from a re-analysis of the deposited data

Results flagged for a closer look

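The net change in open histone genes with olaparib in shControl had opposite signs in the lines: -8 in LOVO (57 open before, 49 after) and 2 in RKO (45 before, 47 after). The difference was not tested, since there is 1 list per group. The scored lists changed in length in the same directions, from 41431 to 32192 intervals in LOVO and from 21210 to 25855 in RKO. With lists of equal number both signs turned (5 lost and 12 gained in LOVO, 13 lost and 1 gained in RKO). Only the longer list is cut there, which favours fewer open genes in it. With scores of 5 or more both signs stayed (9 lost and 2 gained in LOVO, 1 lost and 11 gained in RKO).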

How the results depend on the processing

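Of 142 recomputed values 117 stayed within 1.5 times the reported count, including 47 of 52 for open genes and 64 of 84 for genes lost or gained. Reduced to the 21210 highest-scoring intervals of the shortest scored list, open histone genes numbered 19 in LOVO shControl, 24 in LOVO shControl with olaparib, 12 in LOVO shMETTL3 with olaparib and 18 in RKO shMETTL3 with olaparib. By the promoter window only, which is narrower than 1 kb (67 genes), RKO shMETTL3 had 6, and the other RKO lists had 33 to 41. Against the scored shControl list, LOVO lost 44 genes with shMETTL3 and RKO gained 2. For olaparib in shControl, the merged reference gave 5 lost and 13 gained in LOVO and 4 lost and 0 gained in RKO. Lists of equal number gave 5 lost and 12 gained in LOVO and 13 lost and 1 gained in RKO. Scores of 5 or more gave 9 lost and 2 gained in LOVO and 1 lost and 11 gained in RKO. For shMETTL3 under olaparib, equal numbers gave 26 lost and 1 gained in LOVO and 18 lost and 0 gained in RKO, scores of 5 or more gave 5 lost and 3 gained in RKO, and a 2000 bp window gave 2 lost in LOVO and 2 gained in RKO. Apart from the shorter lists that equal numbers make by construction, the cause was not tested.

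No paired analysis was possible because the merged lists carry no replicate number and the scored lists all name replicate 1 alone. Likewise no fit without a replicate was run, and batch 2 of shControl was not set apart. Depth is unknown, and an absent interval means only that none was called.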
